A study of Mus musculus with 12 samples.

Results

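The 8 kidney libraries from mice with chronic kidney disease (CKD) fell into 5 that held fat RNA and 3 that held little of it, out of 12 libraries in all. The 5 were chosen by the deposited log2 value of Adipoq, which codes for adiponectin, a hormone secreted by fat cells. Libraries at 3 or more are called fat-RNA libraries here and are CKD 2, CKD 4, CKD TRF 1, CKD TRF 3 and CKD TRF 4. Libraries below 3 are called low-fat libraries and are CKD 1, CKD 3 and CKD TRF 2. Because the libraries were sorted by their own values, every difference between the sides is given as a description without a test, and none of the numbers supports the sorting itself.

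The study compared whole-kidney total RNA of C57BL/6 mice in 3 groups of 4 libraries: Control, CKD and CKD TRF, where TRF stands for time restricted feeding, a regime that limits eating to certain hours of the day. The labels do not say how the disease was brought about, at which hours food was given, the age or sex of the mice, or that each library came from its own animal, so p-values measure the spread between these libraries only. The assay was QuantSeq, which reads the 3′ ends of polyadenylated RNA. Each value is log2 of a scaled read number plus 1, and "scaled reads" below are those values taken back to the linear scale.

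The kidney's urine collects in the renal pelvis, a funnel lined by urothelium, and the pelvis lies in the hilum beside fat, part of which is brown fat in mice. The tip of the medulla, the papilla, projects into the pelvis and is made largely of collecting ducts, thin limbs of Henle and interstitial cells. Collecting duct principal cells take up water through aquaporins under vasopressin. The cortex, on the outside, holds the glomeruli and most of the proximal tubule.

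The 5 fat-RNA libraries held 14146120 to 17209869 reads, the 3 low-fat libraries 14512556 to 16857902, and the 4 Control libraries 10989953 to 12810829, as recovered from the step that 1 read makes in the low values. At this depth a count of 0 allows up to 0.168 to 0.306 scaled reads, for counting error only. Depth therefore overlapped between the sides, and so did the share taken by the ribosomal precursor Rn45s, at 9.59% to 13.3% against 9.73% to 11.9%. The first principal component of the 8 diseased libraries carried 21.2% of the variance. All 5 fat-RNA libraries were on its positive side and all 3 low-fat libraries on its negative side. The second carried 19.7% and did not divide the sides, with fat-RNA library CKD 2 at -22.3 and low-fat library CKD TRF 2 at 22.4. Adipoq, which made the sides, was among the genes used for both components.

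Adipoq stood at 5.29 in CKD 2, 5.90 in CKD 4, 4.10 in CKD TRF 1, 3.44 in CKD TRF 3 and 4.40 in CKD TRF 4. In the low-fat libraries it was 1.53 in CKD 1, 1.03 in CKD 3 and 0.09 in CKD TRF 2. The library just inside the threshold was thus CKD TRF 3 and the library just outside it CKD 1. The 4 Control libraries lay between 0 and 0.55, so CKD 1 and CKD 3 were above every Control library and were not free of fat RNA.

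Ucp1, the uncoupling protein of brown fat, was at 4.76, 5.71, 2.55, 2.91 and 4.32 in CKD 2, CKD 4, CKD TRF 1, CKD TRF 3 and CKD TRF 4, in that order. It was at 0.83 and 0.43 in CKD 1 and CKD 3 and at 0 in CKD TRF 2, with a Control range of 0 to 0.45. Cidea, a lipid droplet protein of brown fat, was at 4.70, 5.56, 2.24, 3.30 and 4.32 in the fat-RNA libraries and at 0.26, 0.61 and 0 in the low-fat libraries. Both brown fat genes therefore put the same 5 libraries on top. Upk3a, a uroplakin of the urothelial surface, was at 5.33, 4.76, 5.0, 4.28 and 4.92 in the fat-RNA libraries and at 2.95, 3.20 and 3.13 in the low-fat libraries. Its Control range was 0.86 to 1.88, so the low-fat libraries held more Upk3a than Control as well.

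**Figure D1:**
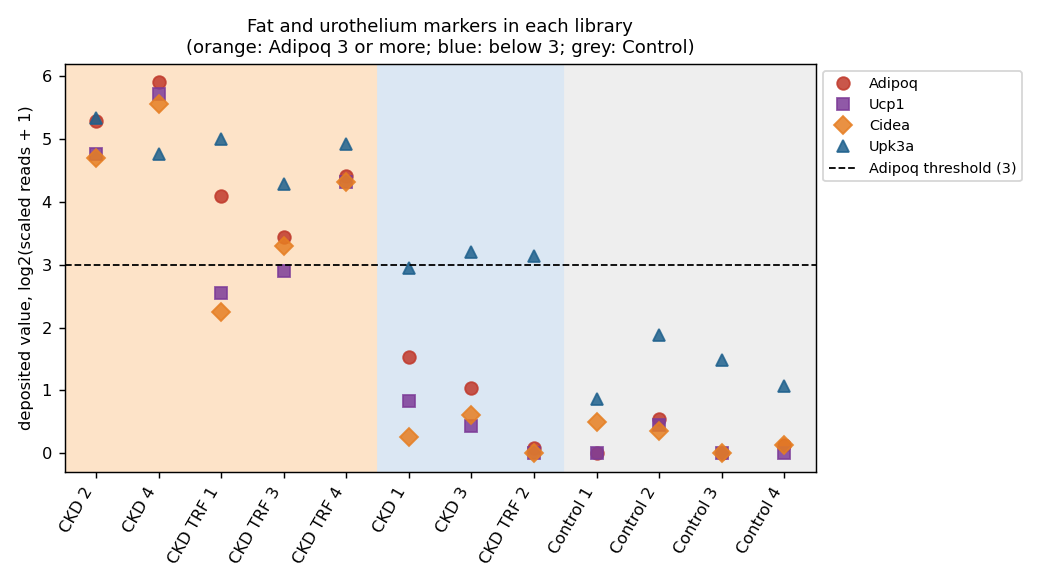
Log2 values of Adipoq, Ucp1, Cidea and Upk3a in each of the 12 libraries (points), with the fat-RNA, low-fat and Control libraries apart on the horizontal axis. All 4 genes were higher in each of the 5 fat-RNA libraries than in each of the 3 low-fat libraries, and Adipoq used for the sorting spans 3.44 to 5.90 against 0.09 to 1.53.

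Kidney itself makes many genes of the fat lists: of the 43 fat genes that the files hold, 24 had a Control mean of 4 or more. Summed over the whole list, the fat genes overlapped between the sides, at 4534 to 6073 scaled reads against 4084 to 4616. The whole brown fat list was lower in the fat-RNA libraries, at 2140 to 2377 against 2389 to 2629, and the whole urothelium list was higher, at 341 to 416 against 174 to 199. The genes that Control kidneys hardly hold were therefore summed apart. The sum of the 12 fat genes with a Control mean below 1 was 74.0 to 407 scaled reads in the fat-RNA libraries, 2.32 to 14.3 in the low-fat libraries and 0.816 to 2.65 in Control. The 10 such brown fat genes summed to 26.6 to 155, 12.9 to 14.9 and 1.00 to 3.13 scaled reads. The 15 such urothelial genes summed to 33.4 to 56.3, 11.1 to 16.3 and 4.00 to 5.71 scaled reads. In CKD TRF 2, Ucp1 and Cidea were at 0 scaled reads, so the brown fat sum there came from other members of that list. Within the fat-RNA libraries the sum of these fat genes had a wider range than that of these urothelial genes.

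A gene was counted as differing when no library of 1 side overlapped the other side and the difference, fitted with the group as a covariate, was at least 2-fold. Over all 13943 tested genes, 69 were higher in the fat-RNA libraries (0.495%) and 0 were lower (0%). Of the 69, 26 belonged to the fat, brown fat or urothelium lists, with 12, 4 and 10 genes. Another 7 were kidney genes, meaning genes outside those 3 lists whose mean in Control kidneys was 4 or more, equal to 15 scaled reads. The other 36 were low in Control kidneys.

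Among the 7476 kidney genes, 7 were at least 2-fold higher in the fat-RNA libraries (0.0936%) and 0 were at least 2-fold lower (0%). They were Aqp4, Spink8, Aqp2, Akr1b3, Gm6644, Fxyd4 and Fam167b. Aqp2, Aqp4 and Fxyd4 are genes of the principal cell and Akr1b3 is an enzyme of osmolyte synthesis in the medulla. In bulk tissue a larger number of cells of a type and more RNA per cell cannot be told apart. The fat and urothelial markers above moved with these genes, and their part in the differences was not tested.

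Aqp2 codes for the water channel that vasopressin sends to the apical membrane of principal cells (15:99579055-99584547, plus strand, GRCm38). Its log2 value was 8.49 in CKD 2, 8.65 in CKD 4, 8.44 in CKD TRF 1, 9.33 in CKD TRF 3 and 9.04 in CKD TRF 4. It was 7.13 in CKD 1, 7.64 in CKD 3 and 7.66 in CKD TRF 2. Control libraries lay between 6.89 and 7.20. Every fat-RNA library stood above every other library, and the highest Aqp2 was in CKD TRF 3, the fat-RNA library with the least Adipoq. Whether Aqp2 followed Adipoq within the fat-RNA libraries was not tested. On the linear scale the level was 454 ± 127 scaled reads (SD, n = 5) against 180 ± 35.0 (SD, n = 3), and 133 ± 13.1 (SD, n = 4) in Control. The fitted log2 difference was 1.22 ± 0.15 (SE).

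Aqp4 is a water channel of the basolateral membrane of the same cells. Its log2 values were 4.87, 4.63, 4.42, 5.05 and 5.31 in CKD 2, CKD 4, CKD TRF 1, CKD TRF 3 and CKD TRF 4. They were 3.21, 3.12 and 3.02 in CKD 1, CKD 3 and CKD TRF 2. The log2 difference was 1.73 ± 0.18 (SE). Here the Control libraries, at 3.67 to 4.95, lay above all 3 low-fat libraries and overlapped the fat-RNA libraries. Aqp2 and Aqp4 therefore differed in which side was nearer to Control.

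Spink8, a serine protease inhibitor of the Kazal type (9:109812280-109826633, plus strand), was at 5.45, 5.67, 6.23, 5.80 and 5.81 in the fat-RNA libraries in the same order. In the low-fat libraries it was at 3.52, 4.35 and 4.26, and its log2 difference was 1.65 ± 0.16 (SE). Control libraries, at 4.77 to 5.13, lay between the sides without overlapping either.

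Fxyd4, a small regulator of the sodium pump in the collecting duct (6:117933559-117937692, minus strand), was at 5.64, 5.78, 5.97, 5.82 and 5.90 against 4.58, 4.93 and 4.73. Its log2 difference was 1.05 ± 0.12 (SE), and Control, at 4.67 to 5.30, overlapped the low-fat libraries and not the fat-RNA libraries. Akr1b3, the aldose reductase that makes sorbitol from glucose (6:34302434-34317478, minus strand), was at 5.70, 5.89, 5.82, 6.18 and 5.83 against 4.71, 4.83 and 4.86. Its log2 difference was also 1.05 ± 0.12 (SE), with Control at 4.62 to 5.07. Gm6644 followed Akr1b3 to within 0.01 in every library, so the pair may share reads and is counted here as the deposited tables list it.

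Fam167b, whose role is not well described (4:129576815-129578549, minus strand), was at 3.35, 4.15, 4.39, 3.78 and 4.18 in the fat-RNA libraries and at 3.21, 3.02 and 2.58 in the low-fat libraries. Its log2 difference was 1.02 ± 0.23 (SE), and the gap between the sides was 0.14 at its narrowest, between CKD 2 and CKD 1. Without CKD TRF 2 the difference was 0.63, below the 2-fold mark. CKD TRF 2 is the only low-fat CKD TRF library, so every fitted difference given without it is the difference within CKD alone. The Fam167b difference was also below 2-fold without CKD 4 at 0.92, CKD TRF 1 at 0.94 and CKD TRF 4 at 0.98. Control libraries, at 3.85 to 4.32, were above all 3 low-fat libraries, as for Aqp4.

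**Figure D2:**
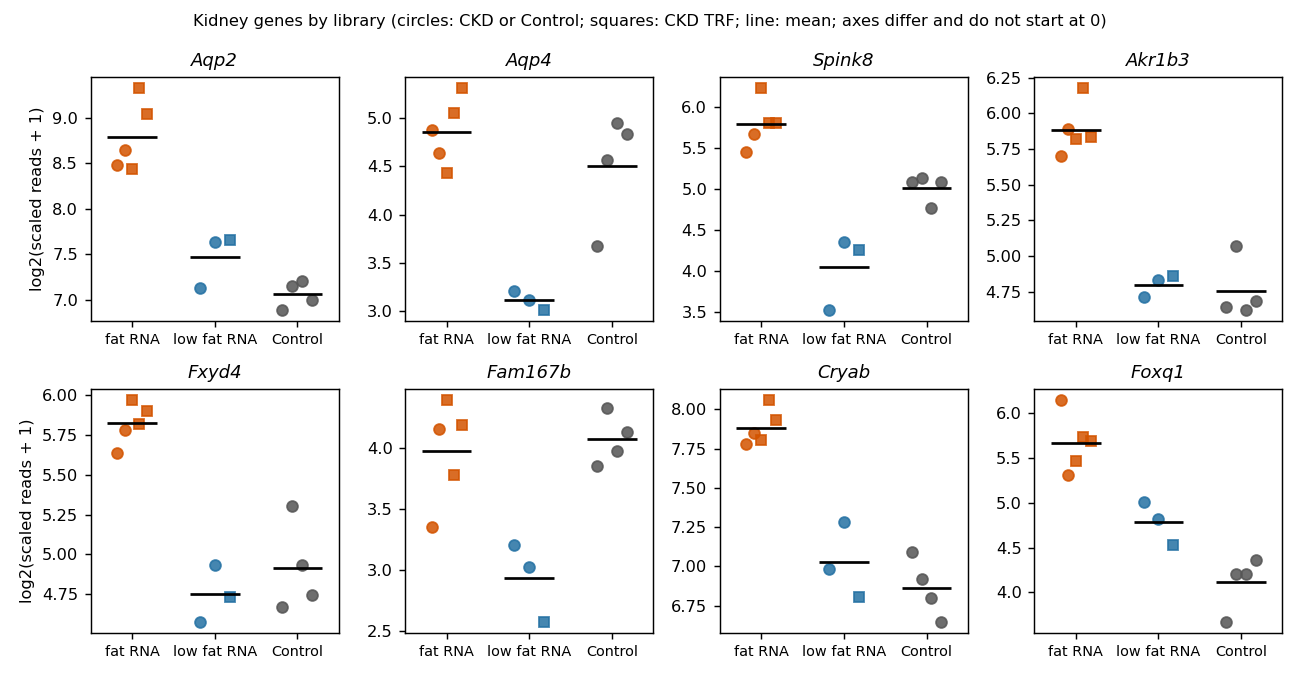
Log2 values of 8 kidney genes in each library (points), with the fat-RNA, low-fat and Control libraries apart on the horizontal axis of each panel. Lines are means, and circles are CKD or Control and squares CKD TRF libraries. Aqp2, Akr1b3 and Fxyd4 in Control overlapped the low-fat libraries, Aqp4 and Fam167b in Control lay above it, and Spink8 in Control lay between the sides.

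With a limit of 1.5-fold in place of 2-fold, 12 kidney genes were higher (0.161%) and 0 were lower (0%), beside 133 (0.954%) and 32 (0.23%) of all tested genes. The 5 added genes were Foxq1, Gstm2, Cryab, Rgcc and Plet1. Cryab, the small heat shock protein alpha-B-crystallin that is abundant in the inner medulla, was at 7.78, 7.85, 7.80, 8.06 and 7.93 against 6.99, 7.28 and 6.81. Its log2 difference was 0.87 ± 0.11 (SE). Foxq1, a forkhead transcription factor, differed by 0.94 ± 0.15 (SE) on the log2 scale, and Gstm2, a glutathione transferase, by 0.88 ± 0.11 (SE). Control libraries lay below both sides for Foxq1, at 3.67 to 4.36.

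Rgcc, a regulator of the cell cycle, differed by 0.78 ± 0.19 (SE) on the log2 scale, and its Control libraries, at 3.71 to 4.33, overlapped both sides. Plet1 differed by 0.70 ± 0.15 (SE), and by 0.38 without CKD TRF 2. Control libraries overlapped the low-fat libraries and lay below the fat-RNA libraries for 7 of the 12 genes. The count of 12 became 22 without CKD 1.

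The list of principal cell genes had 23 tested members, of which 9 were higher without overlap and 0 were lower, beside 2.51% and 2.23% of all tested genes. Its median log2 difference was 0.15, with 16 of the 23 above 0, beside 0.00 over all tested genes, of which 6973 were above 0. At 2-fold, 4 of the 23 were higher: Aqp4, Aqp2, Fxyd4 and Elf5. Elf5, a transcription factor of principal cells, was low in level, at 1.79 to 2.20 in the fat-RNA libraries and 0.60 to 1.39 in the low-fat libraries.

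Avpr2, the vasopressin receptor that drives Aqp2, was at 4.56, 4.31, 4.59, 4.69 and 4.19 against 4.08, 4.18 and 3.51, a log2 difference of 0.60 ± 0.17 (SE). The gap between CKD TRF 4 and CKD 3 was narrow for this gene. Krt18, a keratin of simple epithelia, differed by 0.89 ± 0.14 (SE), and Ptges, which makes prostaglandin E2, by 0.62 ± 0.18 (SE). Gata3, a transcription factor of the duct, differed by 0.48 ± 0.11 (SE), and Apela, a peptide ligand of the apelin receptor, by 0.42 ± 0.10 (SE).

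The principal cell genes did not move as a block. The 3 subunits of the epithelial sodium channel overlapped between the sides, with log2 differences of 0.01 ± 0.15 (SE) for Scnn1a, -0.16 ± 0.16 for Scnn1b and -0.07 ± 0.24 for Scnn1g. Aqp3, the basolateral water channel that urothelium also makes, was at 4.60 to 5.13 against 4.45 to 4.82, a difference of 0.16 ± 0.14 (SE). So the water channels Aqp2 and Aqp4 stood apart between the sides while Aqp3 and the sodium channel did not.

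The list of thin limb and papilla genes had 25 tested members, with a median log2 difference of 0.24. Without overlap, 9 were higher and 2 lower, beside 2.51% and 2.23% of all tested genes. Without CKD TRF 2 the median was 0.13. Of these, 3 were at least 2-fold higher: Akr1b3, Fxyd4 and Sptssb, a subunit of the enzyme that starts sphingolipid synthesis. Sptssb was at 2.61, 2.88, 1.87, 2.95 and 3.52 in the fat-RNA libraries and at 0.41, 0.43 and 0.48 in the low-fat libraries. Control libraries held no more than 0.45, so this gene is not among those that Control kidneys hold. The log2 differences in the list ranged from -0.69 to 2.31. Of the 2 lower members, 1 was past 1.5-fold. The other was Slc6a6, the taurine transporter, at a log2 difference of -0.16 ± 0.10 (SE).

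Over both lists, 47 genes were tested, and the median log2 difference was 0.20. Without overlap, 17 were higher and 2 lower, beside 2.51% and 2.23% of all tested genes. Of the 12 kidney genes past 1.5-fold, 5 were members of either list. Both lists were drawn up with earlier results of these libraries known.

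**Figure D3:**
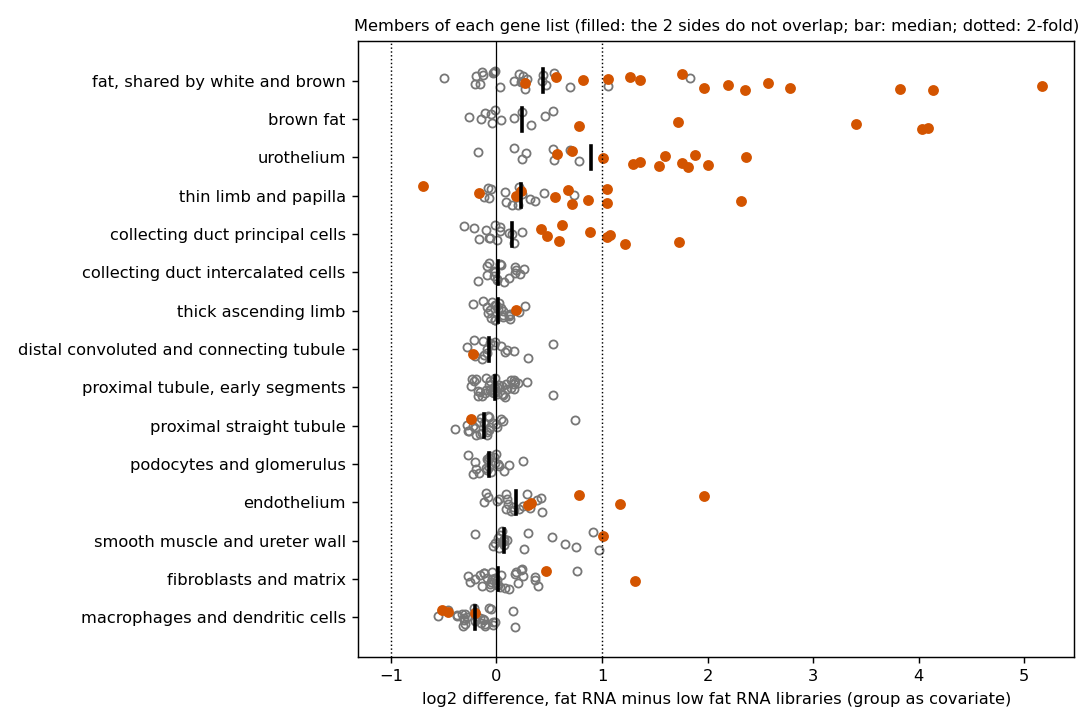
Log2 difference between fat-RNA and low-fat libraries (horizontal axis) for the tested members of gene lists of kidney segments and neighbouring tissues (points, filled where the sides do not overlap, with the list's median as a bar). The medians of the urothelium, papilla and principal cell lists were 0.90, 0.24 and 0.15, and those of the thick ascending limb, intercalated cell and early proximal tubule lists were 0.02, 0.02 and -0.01.

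The lists of other kidney segments had few genes without overlap or none, beside 2.51% higher and 2.23% lower of all tested genes. At such shares a list of this size holds few or none, so the counts do not set these segments apart. None of the 38 early proximal tubule genes, the 18 intercalated cell genes or the 21 podocyte genes was free of overlap, and their median log2 differences were -0.01, 0.02 and -0.07. Intercalated cells, which move acid and base, lie in the same ducts as principal cells. The thick ascending limb list had 24 tested genes with 1 higher without overlap and a median of 0.02.

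Umod, the uromodulin of the thick ascending limb, was at 10.45 to 10.80 in the fat-RNA libraries and 10.48 to 10.68 in the low-fat libraries, a log2 difference of -0.02 ± 0.10 (SE). Slc12a1, the sodium-potassium-chloride cotransporter of that segment, differed by -0.02 ± 0.10 (SE). Slc34a1, the phosphate transporter of the early proximal tubule, differed by -0.17 ± 0.12 (SE). All 3 overlapped between the sides. The 25 genes of the proximal straight tubule had a median of -0.12, with 4 above 0 and 1 lower without overlap. The 18 of the distal convoluted and connecting tubule had a median of -0.07 with 1 lower, beside 2.23% of all tested genes.

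The other 36 genes lay outside the fat, brown fat and urothelium lists and had a Control mean below 4, and some belong to other lists. Of the 36, 7 reached a mean of 4 in the fat-RNA libraries: Aldh1a3, Sprr2a2, Prkar2b, Muc20, Tbx3, Wnt4 and Hacd4. Aldh1a3, which makes retinoic acid from retinal, was at 4.70, 4.33, 4.35, 4.21 and 4.22 against 1.46, 1.11 and 1.26. Its log2 difference of 3.13 ± 0.19 (SE) exceeded that of Upk3a, at 1.81 ± 0.19 (SE). The 5 values lay within 0.49 of each other, and those of Adipoq within 2.46 among the same libraries. Whether Aldh1a3 followed the amount of fat RNA was not tested.

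Sprr2a2, a small proline-rich protein of stratified epithelia, was at 5.97, 5.49, 4.97, 5.21 and 5.11 against 2.75, 3.20 and 3.25. The mouse genome holds near-identical Sprr2a copies, so how reads were shared among them is uncertain. Muc20, a membrane mucin, was at 4.05, 4.11, 3.90, 4.21 and 4.48 against 2.66, 2.99 and 2.93. The low-fat libraries were above every Control library for both, at Control maxima of 2.30 and 2.04. Prkar2b, a regulatory subunit of protein kinase A that fat cells hold in abundance, was at 5.05, 5.48, 3.71, 4.58 and 4.40 against 2.97, 3.60 and 2.72. Its narrowest gap was between CKD TRF 1 and CKD 3.

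Wnt4, a signalling protein of the collecting duct and of injured kidney, was at 4.39, 4.50, 3.67, 4.45 and 4.10 against 3.41, 3.22 and 3.17. Control libraries lay between 0.39 and 1.80, so all 8 diseased libraries were above Control and the fat-RNA libraries were highest. Its log2 difference of 1.03 ± 0.18 (SE) was 0.97 without CKD 3 or CKD TRF 3 and 0.98 without CKD 4. Tbx3, a T-box transcription factor of ureter and duct development, differed by 1.06 ± 0.17 (SE) on the log2 scale, and Hacd4, an enzyme of fatty acid elongation, by 1.03 ± 0.19 (SE). Without CKD TRF 2 these were 0.75 and 0.72, below the 2-fold mark.

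Lists of other tissues and cell types also had genes past the 2-fold mark, which 0.495% of all tested genes passed. Of 20 tested genes of smooth muscle and ureter wall, Hhip, which binds hedgehog ligands, was 2-fold higher, at 2.55 to 3.27 against 1.84 to 2.03. Of 24 endothelial genes, 5 were higher without overlap, beside 2.51% of all tested genes, and Fabp4 and Vwf passed 2-fold. Fabp4, a fatty acid carrier of capillaries that is also in the list of fat markers, was at 7.56, 8.51, 7.01, 6.96 and 7.64 against 5.92, 6.40 and 5.13, and at 6.71 to 7.82 in Control. Its low-fat libraries were thus below Control. Vwf, von Willebrand factor, was at 1.86 to 2.76 against 0.79 to 1.43.

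Of 11 tested genes of mesothelium and capsule, 3 were higher without overlap, beside 2.51% of all tested genes. The 1 past 2-fold was the uroplakin Upk1b, which the urothelium list shares. Of 6 adrenal cortex genes, the 1 that was higher was Mrap, which fat also makes. Of 11 nerve genes, the 1 was Fxyd3, whose values stayed within 0.094 of its neighbour Lgi4 in every library. Of 34 fibroblast and matrix genes, 1 was 2-fold higher, Postn, which codes for periostin. It was at 2.51, 2.61, 1.95, 2.19 and 1.86 against 1.03, 1.39 and 0.73, and the list's median was 0.01.

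Kidney genes that were lower in the fat-RNA libraries differed by little. Of the kidney genes, 178 were lower without overlap (2.38%) and 135 were higher (1.81%). The median log2 difference of the lower genes was -0.22, and the farthest reached -0.45. The median of the higher genes was 0.28.

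Macrophage and dendritic cell genes had a median log2 difference of -0.20 over 30 tested genes. The median was -0.09 without CKD TRF 2 and -0.33 without CKD 2. Of the 30, 2 were above 0, beside 6973 of all 13943. Without overlap, 3 were lower, Ccr2, Clec7a and Fcer1g, beside 2.23% of all tested genes. Clec7a, the receptor for fungal beta-glucan called dectin-1, was at 4.62, 4.84, 4.51, 4.34 and 4.82 against 5.16, 4.99 and 5.30, a log2 difference of -0.52 ± 0.14 (SE). Ccr2, the chemokine receptor of monocytes, was at 5.03, 4.97, 4.31, 4.91 and 4.97 against 5.26, 5.48 and 5.31, a difference of -0.46 ± 0.15 (SE). The 8 diseased libraries were above every Control library for both genes. None of the 17 tested T cell genes was free of overlap, at a median of 0.00.

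Tubular injury genes had a median of 0.06 over 31 tested members. Without overlap, 1 was higher (Krt18) and 1 lower (Vcam1), near the 2.51% and 2.23% of all tested genes. Vcam1, an adhesion molecule of injured tubule and endothelium, was at 6.05, 5.79, 5.87, 5.23 and 5.90 against 6.23, 6.10 and 6.24, and at 3.26 to 3.89 in Control. Lcn2, the injury protein lipocalin 2, was at 4.90, 4.44, 4.19, 4.50 and 4.81 against 4.10, 4.27 and 3.60, so the sides overlapped. Havcr1, the kidney injury molecule KIM-1, differed by 0.11 within CKD and by -1.22 within CKD TRF.

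Genes that glucocorticoids raise had a median of 0.46 over 14 tested members, and of 0.24 without CKD TRF 2. The metallothioneins Mt1 and Mt2, which bind zinc, were higher without overlap by 0.35 ± 0.09 and 0.31 ± 0.09 (SE) on the log2 scale. Of 71 respiratory chain genes, 61 were above 0, beside 6973 of all 13943, and 2 were higher without overlap, near the 2.51% of all tested genes. Their median was 0.09, and 0.03 without CKD 4, 0.06 without CKD 1 and 0.15 without CKD 2. Of 23 clock genes, the 1 without overlap was Rora, a nuclear receptor of the clock, at a log2 difference of -0.19 ± 0.09 (SE). Of all tested genes, 2.23% were lower without overlap.

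The CKD and CKD TRF libraries are separate, so the sides could be set against each other within each group: 2 against 2 in CKD and 3 against 1 in CKD TRF. Both groups were sorted by the same Adipoq threshold, so the values of 1 group describe and do not test those of the other. Within CKD alone, 6 kidney genes were 2-fold higher without overlap, and all 6 were 2-fold higher in CKD TRF, with a median log2 difference of 1.48. They were Aqp2, Aqp4, Spink8, Akr1b3, Cyp26b1 and Gm6644, which may share reads with Akr1b3. These 6 were among 7476 kidney genes, beside 89 of all 13943 tested genes that were 2-fold higher without overlap within CKD alone. Aqp2 differed by 1.18 in CKD and 1.27 in CKD TRF, Aqp4 by 1.59 and 1.91, and Spink8 by 1.62 and 1.69. Fam167b was less even, at 0.63 and 1.54. The differences within CKD equal those fitted without CKD TRF 2, so they are not separate checks. With each library left out in turn, the log2 difference ranged from 1.11 to 1.35 for Aqp2, from 1.59 to 1.82 for Aqp4 and from 1.47 to 1.85 for Spink8. It ranged from 1.00 to 1.10 for Akr1b3 and from 0.96 to 1.15 for Fxyd4, which missed the 2-fold mark at 0.98 without CKD 1 and 0.96 without CKD TRF 2.

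At 1.5-fold, 20 kidney genes were higher in CKD alone, of which 14 were above 0 and 11 were 2-fold higher in CKD TRF. Of the 11 kidney genes 1.5-fold lower in CKD alone, 9 were above 0 in CKD TRF. Of all 7476 kidney genes, 3681 (49.2%) were above 0 and 14 were 2-fold higher there. Of the 59 genes outside the 3 lists that were 2-fold higher in CKD, 51 were above 0 and 29 were 2-fold higher in CKD TRF, beside 6981 and 175 of all 13943 tested genes. The CKD TRF side rests on CKD TRF 2 as its only low-fat library.

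**Figure D4:**
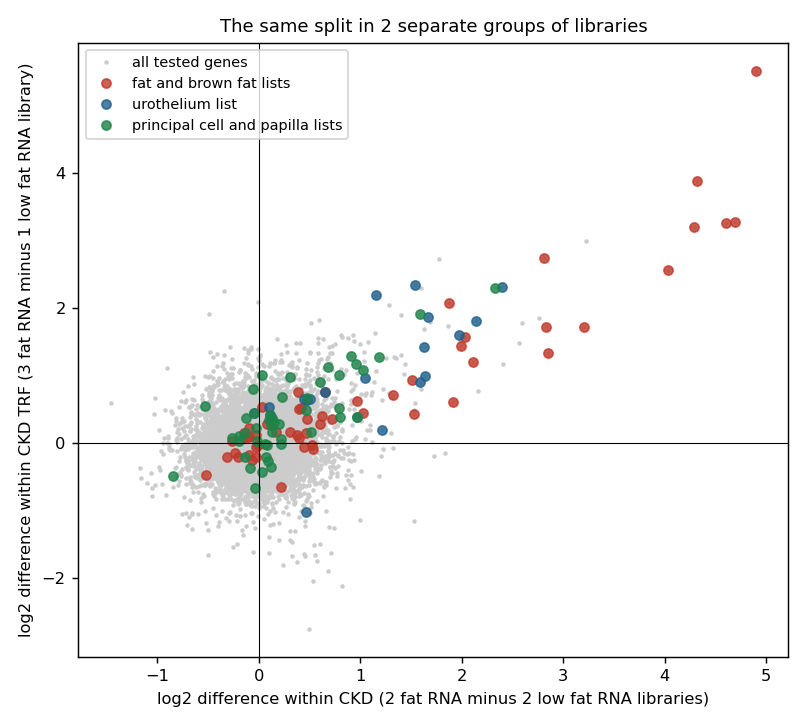
Log2 difference between fat-RNA and low-fat libraries within CKD (horizontal axis, 2 against 2 libraries) and within CKD TRF (vertical axis, 3 against 1), with each point a tested gene and the members of the fat, urothelium, and principal cell and papilla lists in colour. Aqp4, Spink8 and Aqp2 lie to the upper right, at 1.59 and 1.91, 1.62 and 1.69, and 1.18 and 1.27.

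The labelled comparison of CKD TRF with CKD asks what restricted feeding changed in diseased kidneys, and the sides divide its groups unevenly, with fat RNA in 3 of 4 CKD TRF and 2 of 4 CKD libraries. With limma and Benjamini-Hochberg adjustment over 13943 genes, 0 genes passed an adjusted p of 0.05 (0%). At an unadjusted p under 0.05 there were 1263, and the smallest adjusted p was 0.198. None of the 69 genes that differed between the sides passed.

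For Aqp2 the log2 difference of CKD TRF from CKD was 0.64 ± 0.31 (SE, limma adjusted p = 0.558), and with the side as a term it was 0.34 ± 0.15 (SE, adjusted p = 0.478). For Spink8 the same values were 0.78 ± 0.40 (adjusted p = 0.587) and 0.36 ± 0.16 (adjusted p = 0.478). Aqp4 went from 0.49 ± 0.42 (adjusted p = 0.766) to 0.06 ± 0.18 (adjusted p = 0.944). Because these 3 genes differ between the sides and the sides divide the groups unevenly, the term lowers their estimates and errors by construction. With it, 2 of all genes passed (0.0143%): Snora30 was higher (0.00717%) and Adipoq, which had made the sides, was lower (0.00717%). Snora30, a small nucleolar RNA, differed by 0.96 ± 0.16 (SE, adjusted p = 0.0448).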

How the data were processed

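Kidney RNA of 12 libraries (500 ng total RNA each) was sequenced by QuantSeq. The authors deposited 1 table per library with 23282 entries as log2 values. The submitters' processing notes name Bowtie2, bedtools and mm10, and the scaling method is not given in the sources used here. Taken back to the linear scale, the low values fell on whole multiples of 1 read in 98.3% to 100% of cases (tolerance 0.1 read), which gave the depths.

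Groups came from the labels. Genes in the upper 60% by mean over the 12 libraries were tested (13943; 830 of 946 list genes). Differences between the sides were fitted with limma 3.58.1 (R 4.3.3) with group as a covariate, and checked on simulated data. CKD TRF was compared with CKD by limma's two-sided moderated test. No library pair was identical. Gene positions are from GENCODE annotation of GRCm38, the assembly that mm10 names.

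The members, gene lists and tests were chosen with earlier results of these data known. The genes named are those past 2-fold with the largest differences, inside and outside Control kidneys, up to 4 members of each list with the largest difference, and the 4 markers. The 1.5-fold limit for named genes, the counts without overlap, and further list members were chosen after values were seen. Alternatives covered scaling, pseudocount, filters, the sorting and single libraries. Some items are not reported here.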

Additional observations from a re-analysis of the deposited data

Results flagged for a closer look

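A library was set apart where it lay far from the other 3 of its group for a gene named here. It was met in 14 of 174 sets of 4. Chance gives about 1 in 20, a rate that does not hold here because many of the genes were named for differing between the sides. Of the 14, 8 were CKD TRF 2, the only low-fat library of its group, which must stand apart for such genes. In CKD TRF 2, Aldh1a3 was at 1.26 beside 4.21 to 4.35 in the other 3 libraries, Apela at 8.74 beside 9.36 to 9.46, Fxyd4 at 4.73 beside 5.82 to 5.97 and Gata3 at 4.74 beside 5.22 to 5.25. Gstm2 was at 5.49 there beside 6.51 to 6.62, Mrap at 0.34 beside 1.71 to 1.92, Sprr2a2 at 3.25 beside 4.96 to 5.21 and Tbx3 at 3.21 beside 4.60 to 4.76. In CKD TRF 1, Slc6a6 was at 8.41 beside 8.81 to 8.88. In CKD 4, Snora30 was at 4.77 beside 4.33 to 4.40.

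Among Control libraries, Control 2 had Akr1b3 at 5.07 beside 4.62 to 4.69 and its near copy Gm6644 at 5.07 beside 4.63 to 4.69. Control 2 also had Ucp1 at 0.45 beside 0 in the other 3. Control 3 had Spink8 at 4.77 beside 5.08 to 5.13.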

How the results depend on the processing

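Of 357 recomputed values of single genes, 329 moved by less than the spread between libraries and 28 by more, and of 266 list medians 238 and 28. CKD TRF 2 is the only library that Ucp1 and Cidea put on the other side, so that sorting gives the fitted differences within CKD TRF. Leaving out CKD TRF 2 likewise gives the fitted differences within CKD. The 357 and 266 count these repeated values under both names. No gene changed sign. List medians changed sign 13 times: brown fat from 0.24 to -0.03 over the upper 40% of genes, and otherwise medians within 0.02 of 0, such as intercalated cells at -0.08 without CKD TRF 2 and early proximal tubule at 0.06 without CKD 2. The 69 genes 2-fold higher became 17 over the upper 40% of genes, where fewer genes were tested, 133 at 1.5-fold, 140 with libraries sorted by Ucp1 or Cidea (7 against 1) and 175 within CKD TRF. The 0 lower became 18 with a pseudocount of 0.25, 72 by Ucp1 or Cidea, 9 within CKD, 77 within CKD TRF and 32 at 1.5-fold. The 7 higher kidney genes became 3 with Adipoq as a number (Aqp2, Aqp4 and Spink8), 14 within CKD TRF, 12 at 1.5-fold and 1, Aqp2, at a Control mean of 6 or more. Sorting by Ucp1 or Cidea gave 8, of which only Aqp4 and Fam167b were among the 7. The 0 lower became 1, Rn4.5s, by Ucp1 or Cidea and within CKD TRF. The 12 kidney genes at 1.5-fold became 56, 20 within CKD and 68 within CKD TRF under those settings. Leaving out single libraries gave 71 to 85 higher and 0 to 7 lower genes, 6 to 8 and 0 kidney genes, and 12 to 22 at 1.5-fold.

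For CKD TRF against CKD, limma called 0 genes higher and 0 lower. It called 1 and 1 with the side as a term, 0 and 1 (Adam7) without a filter, 1 and 7 in the fat-RNA libraries, and 82 and 69 in the 3 low-fat libraries, which leave a single residual degree of freedom. Leaving out single libraries gave 0 to 1 higher and 0 to 2 lower: Plekhh2 without CKD TRF 1, Smoc2 and Havcr1 without CKD TRF 2 and Slc5a12 without CKD TRF 3. With the replicate number as a block, 70 genes were higher and 3 lower between the sides, 7 kidney genes were higher, and CKD TRF against CKD stayed at 0 calls. Same-numbered CKD and CKD TRF libraries correlated at 0.0206, -0.179, -0.0813 and 0.110 after each group's mean was removed. Only CKD 4 correlated best with the library of its own number. Libraries numbered 1, 2 and 3 lie on opposite sides in CKD and CKD TRF, so these values cannot decide whether the numbers pair them. The causes of these shifts were not tested. Depth limits the genes near 0.168 to 0.306 scaled reads.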

Other observations

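Cyp26b1, which breaks down retinoic acid, was chosen after its values were seen, because its difference between the sides was large and its libraries overlapped. Its log2 value was 2.66 in CKD 2, 6.25 in CKD 4, 4.78 in CKD TRF 1, 4.89 in CKD TRF 3 and 3.92 in CKD TRF 4. In the low-fat libraries it was 1.71 in CKD 1, 2.01 in CKD 3 and 2.74 in CKD TRF 2, and in Control it ranged from 3.07 to 6.54. CKD 2 stood below CKD TRF 2, which kept the gene out of the counts. The log2 difference was 2.25 ± 0.49 (SE). It was 2.60 within CKD and 1.79 within CKD TRF, and all 3 low-fat libraries were below every Control library.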
